A study of Mus musculus with 12 samples.

Results

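The 10 genes studied here belong to the pathway that carries IL-4 and IL-13 signals to the transcription factor STAT6, and they were followed across 4 fractions of monocyte-macrophage lineage cells (Mo-Macs) of inflamed mouse skin. They were listed by symbol for their place in the pathway, with no threshold on their values: the receptor chains *Il4ra*, *Il13ra1*, *Il13ra2* and *Il2rg*, the kinases *Jak1*, *Jak3* and *Tyk2*, the transcription factor *Stat6*, and the feedback inhibitors *Socs1* and *Cish*. All 10 were among the 37775 genes of the expression table and among the 22118 that passed the filter on low counts. The cells came from the ear skin of wild-type (WT) BALB/c mice given 300 μg of anti-TNP IgE intravenously and challenged in the ear with 10 μg of TNP-OVA, which elicits IgE-mediated chronic allergic inflammation (IgE-CAI), and were sorted on day 5 after challenge. The 4 fractions were separated by surface Ly6C and PD-L2: Classical mono (Ly6ChiPD-L2lo), Early CMDM (Ly6ChiPD-L2hi), Late CMDM (Ly6CloPD-L2hi) and Resident-like (Ly6CloPD-L2lo), where CMDM stands for classical monocyte-derived macrophage. Before that separation the study gates Mo-Macs as CD45+CD11b+SiglecF-Ly6G-, which is meant to leave out cells without CD45 or CD11b, such as keratinocytes, fibroblasts, endothelium and most T cells. Each fraction had 3 libraries, made from 5000 to 80000 cells, and no untreated ear entered the comparisons. The labels do not say that libraries of a fraction came from separate mice, so the p-values measure the spread between these libraries, which may be technical.

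IL-4 binds the IL-4 receptor alpha chain (*Il4ra*), which pairs either with the common gamma chain (*Il2rg*) in the type I receptor or with *Il13ra1* in the type II receptor. The type II receptor also binds IL-13, and *Il13ra2* encodes a chain with high affinity for IL-13 that is regarded mainly as a decoy. The chains carry JAK1, JAK3 or TYK2, which phosphorylate the receptor and then STAT6, and phosphorylated STAT6 enters the nucleus and turns on genes of alternative (M2-type) macrophage activation. SOCS1 blocks JAK activity, and CISH is an inhibitor induced by cytokines that act through STAT5 and related factors.

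STAT factors bind a palindrome with the half-sites TTC and GAA, which reads the same on both strands. STAT6 is known to prefer 4 bases between these half-sites and the other STATs 3. Both spacings were searched in RefSeq promoter windows of 300 bases (250 before and 50 after the annotated start, GRCm38.p6). The 4-base spacing was in 0 of the 10 promoters of the pathway genes, against 6.95% of all 32851 windows, and the 3-base spacing was in 1, that of *Cish*, against 8.30%. Among 20 macrophage genes known to respond to IL-4, 12 had a promoter window (15 windows). Of these windows, 4 held the 4-base spacing and 2 the 3-base spacing (*Chil3*, and *Ccl17* in the same window as its 4-base match). The *Cish* match and those of the 4-base spacing are shown because they are the stretches through which STAT6 or another STAT could act on the named genes, with TTC, GAA and the bases between in capitals.
Cish: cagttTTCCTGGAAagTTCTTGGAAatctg
Ccl17: gaccaTTCTCTGGAAagcca
Fcer2a: gtgaaTTCCCAAGAAgggcc
Pdcd1lg2: tccagTTCCTCAGAAaccat
Retnla: cataaTTCACAAGAAattgc

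The *Cish* stretch lies at chr9:107296654-107296683 on the plus strand and holds 2 motifs of the 3-base spacing, the first beginning at the annotated start base and inside the 5′ UTR of a GENCODE M21 transcript. Those of the IL-4 responsive genes hold the 4-base spacing. The *Ccl17* site (chr8:94810294-94810313, plus strand) begins 154 bases before the start and lies outside the gene. The *Fcer2a* site (chr8:3691015-3691034, minus strand) begins 168 bases before the RefSeq start and lies within an annotated transcript of the gene. The *Pdcd1lg2* site (chr19:29410832-29410851, plus strand) begins 82 bases before the start, and the *Retnla* site (chr16:48842459-48842478, plus strand) 145 bases before it, both outside the genes. A match is a description of these letters and no measure of binding.

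The 12 libraries held 12537178 to 19844113 counts, so that 3 counts corresponded to 0.151 to 0.239 CPM, the unit in which counts are divided by the size of their library. The labelled cell type was checked against 8 Mo-Mac markers, whose summed level was 7333 to 9818 CPM in Classical mono, 2502 to 3639 in Early CMDM, 6120 to 7171 in Late CMDM and 9842 to 10777 in Resident-like. Taken singly, 0 of the 8 were higher and 4 lower in Early CMDM than in Classical mono, and 7 were higher and 0 lower in Late than in Early CMDM. The sum did not speak for each marker. In Late CMDM against Classical mono 4 were higher and 2 lower (median log2 fold change 0.39). In Resident-like against Late CMDM 2 were higher and 1 lower (median -0.20). Markers of other skin cells were present as well. The 6 keratinocyte markers summed to 17096 to 27284 CPM in Early CMDM and to 1871 to 4050 CPM in the other 3 fractions, and all 6 were higher in Early CMDM than in Classical mono. Fibroblast markers summed to 2988 to 5588 CPM in the Ly6Chi fractions and 276 to 499 CPM in the Ly6Clo fractions, dendritic and Langerhans cell markers to 1479 to 1727 CPM in Resident-like and 219 to 342 CPM elsewhere, neutrophil markers to 18.0 to 59.4 CPM, B cell markers to 6.58 to 11.6 CPM and eosinophil markers to 0.660 to 10.5 CPM. The neutrophil marker *Ly6g* was at 0 counts in all fractions but Classical mono, and the eosinophil marker *Epx* in all but Resident-like. The 10 genes used by all leukocytes (*Ptprc*, *Coro1a*, *Vav1* and others) held 0.447 to 0.471% of the counts in Classical mono, 0.114 to 0.181% in Early CMDM, 0.249 to 0.279% in Late CMDM and 0.372 to 0.398% in Resident-like. Every fold change below is therefore relative to the bulk of genes (TMM normalization). Where values scaled to these 10 leukocyte genes are given, the median of all genes moved by 1.69 on the log2 scale between Classical mono and Early CMDM, by -0.93 from Early to Late CMDM, by 0.74 from Classical mono to Late CMDM, by -0.65 from Late CMDM to Resident-like, by -1.59 from Early CMDM to Resident-like and by 0.09 from Classical mono to Resident-like. In such bulk samples fewer cells of a type and less RNA per cell cannot be told apart.

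**Figure D1:**
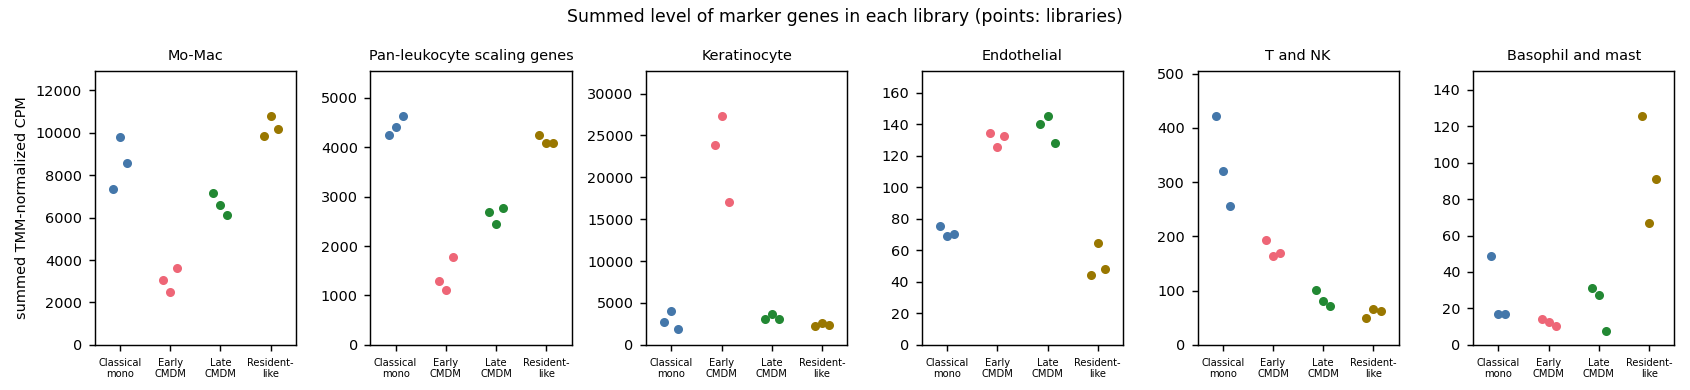
Summed CPM of 6 marker lists (Mo-Mac, the 10 leukocyte genes, keratinocyte, endothelial, T and NK, basophil and mast) in each of the 12 libraries, grouped by fraction, with 1 point for each library. The 3 Early CMDM libraries sit at 17096 to 27284 CPM for keratinocyte markers, above all other libraries, and at 2502 to 3639 CPM for Mo-Mac markers, below all others.

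Among the 10 genes, 9 differed among the 4 fractions by edgeR's quasi-likelihood test (Benjamini-Hochberg adjusted over the 22118 genes), as did 60.8% of all genes tested, and *Jak1* missed the threshold (edgeR adjusted p = 0.111). From Classical mono to Early CMDM, 8 of 10 genes differed (background 44.9% of all genes). Of these, *Cish*, *Il13ra1* and *Il13ra2* were higher (background 24.2%) and *Il4ra*, *Il2rg*, *Jak3*, *Tyk2* and *Stat6* lower (background 20.6%) relative to the bulk of genes. With scaling to leukocyte genes 9 were higher and none was lower, while 19997 of all 22118 genes were higher and 480 lower. The libraries of these fractions did not overlap in 8 of the 10 genes (background 54.4%), 3 of them higher (background 28.6%) and 5 lower (background 25.8%). From Early to Late CMDM, 6 of 10 differed (background 31.9%): *Il4ra*, *Il2rg*, *Jak3* and *Tyk2* were higher (background 14.4%) and *Il13ra1* and *Cish* lower (background 17.5%). With scaling to leukocyte genes 7 were lower and none was higher, while 15967 of all 22118 genes were lower and 161 higher. Libraries did not overlap in 9 genes (background 49.0%), 7 higher (background 23.1%) and 2 lower (background 25.9%). From Late CMDM to Resident-like, 4 of 10 differed (background 28.1%), with *Il13ra1* and *Tyk2* higher (background 12.7%) and *Il13ra2* and *Cish* lower (background 15.4%). With scaling to leukocyte genes 8 were lower, while 12103 of all 22118 genes were lower and 591 higher. Here 6 genes had no overlap (background 43.1%), 3 higher (background 20.8%) and 3 lower (background 22.3%). The median log2 fold change of the 10 genes was -0.35, 0.34 and 0.07 in these 3 comparisons.

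Comparisons that skip a neighbouring fraction share libraries with those above and are given side by side. Late CMDM differed from Classical mono in 6 of 10 genes (background 35.6%), with *Cish* and *Il13ra2* higher (background 18.1%) and *Il13ra1*, *Il2rg*, *Tyk2* and *Stat6* lower (background 17.5%). With scaling to leukocyte genes, 6 of the 10 genes were higher in Late CMDM and none was lower, while 13351 of all 22118 genes were higher and 1151 lower. The libraries did not overlap in 8 genes (background 47.7%), 2 higher (background 23.8%) and 6 lower (background 23.9%). Resident-like differed from Classical mono in 3 of 10 (background 23.7%), with *Il13ra1* higher (background 10.8%) and *Il2rg* and *Jak3* lower (background 12.9%). Only the fall of *Il2rg* was called with scaling to leukocyte genes, while 1862 of all 22118 genes were higher and 1753 lower. There was no overlap in 6 genes (background 34.6%), 3 higher (background 17.1%) and 3 lower (background 17.5%). Resident-like differed from Early CMDM in 8 of 10 (background 46.6%), with *Cish* and *Il13ra2* lower (background 25.1%) and *Il2rg*, *Il4ra*, *Jak3*, *Socs1*, *Stat6* and *Tyk2* higher (background 21.4%). With scaling to leukocyte genes all 10 were lower, while 19868 of all 22118 genes were lower and 300 higher. No overlap was seen in 8 genes (background 55.9%), 6 higher (background 26.9%) and 2 lower (background 29.0%).

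Several of the smaller differences were called or not depending on 1 library or on the processing. The higher *Il13ra1* of Resident-like over Classical mono (0.34, edgeR adjusted p = 0.0290) was not called without the first or the third Classical mono library (0.32 each) or the first (0.28) or the third (0.31) Resident-like library, nor with library size only (0.17) or the 2 fractions alone (0.35). The lower *Stat6* of Late CMDM against Classical mono (-0.28, edgeR adjusted p = 0.0219) was lost without the third Classical mono library (-0.20) or the first (-0.27) or second (-0.26) Late CMDM library, with DEGES (-0.22), with no filter on low counts (-0.27) and with the 2 fractions alone (-0.27). From Late CMDM to Resident-like, *Tyk2* (0.37, edgeR adjusted p = 0.0240) was lost without the second (0.33) or the third (0.34) Late CMDM library or the first (0.32) or the third (0.35) Resident-like library. It was also lost with library size only (0.23) and with DEGES (0.30), which leaves out genes called in a first pass. In Resident-like over Early CMDM, *Il4ra* (0.46, edgeR adjusted p = 0.0291) was lost without the first (0.38) or second (0.36) Early CMDM library or any of the Resident-like libraries (0.41, 0.48 and 0.48), with library size only (0.30) or with DEGES (0.35). In the same comparison *Jak3* (0.48, edgeR adjusted p = 0.0124) was lost without the first Early CMDM (0.44) or first Resident-like library (0.34) or with library size only (0.32). *Jak1* passed in Early CMDM against Classical mono (-0.23) and in Resident-like against Early CMDM (0.28) when the third Resident-like library was left out.

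**Figure D2:**
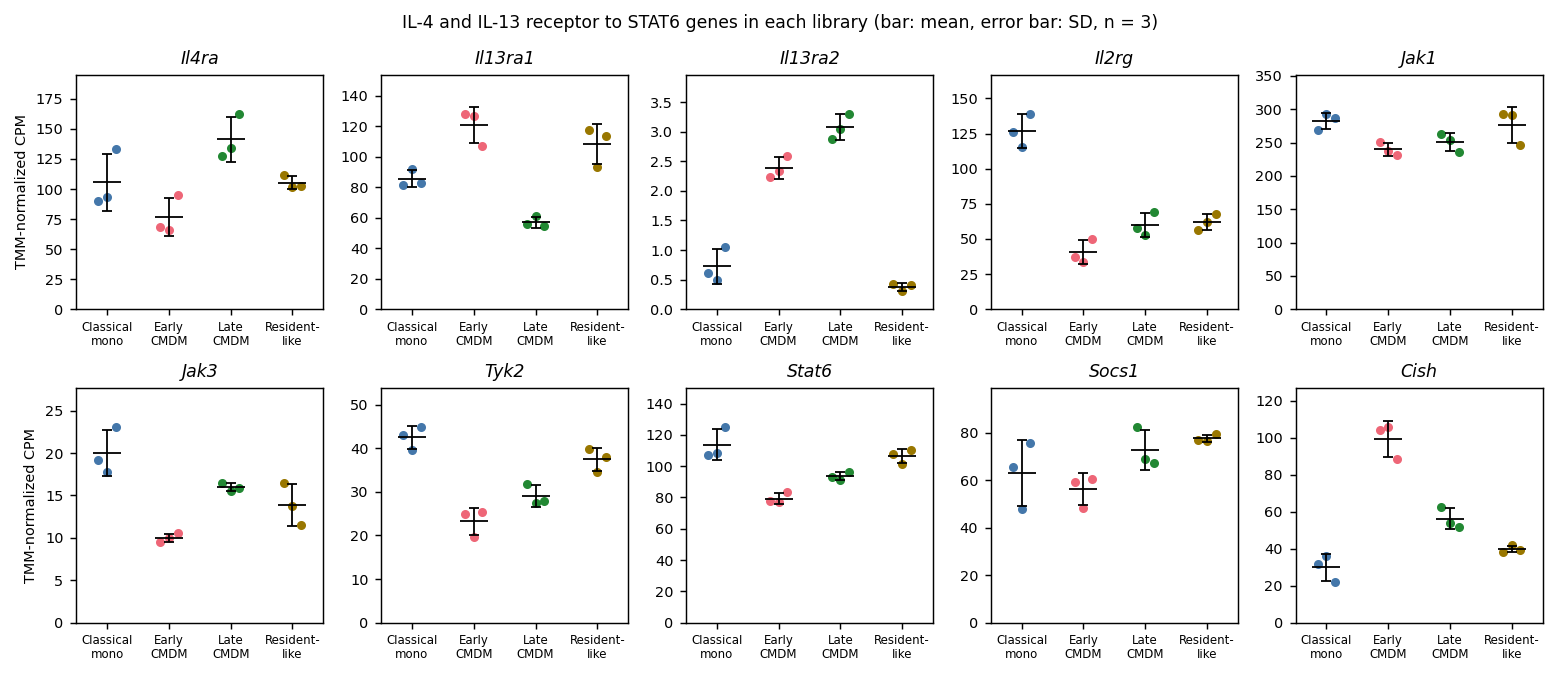
TMM-normalized CPM of the 10 genes in each of the 12 libraries, 1 panel for each gene, with the bar at the mean of the fraction and the error bar its SD (n = 3). *Cish* is at 88.2 to 106 CPM in Early CMDM and at most 62.6 CPM elsewhere, and *Il2rg* is at 115 to 139 CPM in Classical mono and at most 69.5 CPM elsewhere.

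The chain that every type I and type II receptor contains, *Il4ra* (GRCm38 chr7:125552120-125579474, plus strand), was most abundant in Late CMDM. Its level was 90.2, 93.6 and 133 CPM in the 3 Classical mono libraries, 68.8, 66.1 and 95.3 CPM in Early CMDM, 127, 134 and 163 CPM in Late CMDM and 112, 102 and 102 CPM in Resident-like. The third library was the highest in 3 of the fractions, and the Late CMDM libraries did not overlap with those of Early CMDM or Resident-like. From Early to Late CMDM *Il4ra* rose by 0.88 on the log2 scale (SE 0.16, edgeR adjusted p = 0.000573), whereas it stood at -0.047 with scaling to leukocyte genes, where the median of all genes was at -0.93. It was 0.46 lower in Early CMDM than in Classical mono (SE 0.16, edgeR adjusted p = 0.0287), or 1.22 higher with scaling to leukocyte genes. That call rested on single libraries: without the third Classical mono library the difference was -0.26 and not called, nor was it called without the first (-0.38) or the second (-0.35) Early CMDM library, with DEGES (-0.36) or with the 2 fractions alone (-0.47). Late CMDM and Classical mono, with 141 ± 18.9 and 106 ± 23.9 CPM (SD, n = 3), did not differ past the threshold (edgeR adjusted p = 0.0529). Nor did Late CMDM and Resident-like (log2 fold change -0.42, edgeR adjusted p = 0.0610), but without the third Classical mono (0.62) or the second or the third Early CMDM library (0.43 each) the former comparison was called, and without the third Classical mono or the third Early CMDM library the latter was (-0.42 each). Both were called with scaling to leukocyte genes (1.18 and -1.08), where the medians of all genes were 0.74 and -0.65. Both were also called with DEGES (0.48 and -0.49), with the 2 fractions alone (0.43 and -0.43) and with the replicate number as a block (0.43 and -0.41). The former was called with RLE size factors (0.42), and the latter by DESeq2 (-0.44) and with library size only (-0.56).

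*Il13ra1* (chrX:36112110-36171259, plus strand), the partner chain of the type II receptor, had the opposite order in the CMDM fractions. It stood at 81.5, 91.8 and 83.0 CPM in Classical mono, 128, 127 and 107 CPM in Early CMDM, 55.8, 61.0 and 54.3 CPM in Late CMDM and 117, 93.5 and 114 CPM in Resident-like. The 3 Late CMDM libraries were below all 9 others, and Early CMDM overlapped with Resident-like alone. It was 0.50 higher in Early CMDM than in Classical mono (SE 0.11, edgeR adjusted p = 0.00124) and fell by 1.08 from Early to Late CMDM (SE 0.11, edgeR adjusted p = 1.87e-06), in the same directions with scaling to leukocyte genes (2.24 and -2.06). In Resident-like it was 0.92 higher than in Late CMDM (SE 0.11, edgeR adjusted p = 1.11e-05), and 0.26, not called, with scaling to leukocyte genes. Late CMDM was below Classical mono by a log2 fold change of -0.58 (SE 0.11, edgeR adjusted p = 0.000516), or 0.17, not called, with that scaling. Early CMDM and Resident-like, neighbours in the order, did not differ past the threshold (edgeR adjusted p = 0.249). The keratinocyte marker sum was also highest in Early CMDM, and its part in the level of *Il13ra1* there was not tested. The keratinocyte sum was 2298 to 2615 CPM in Resident-like and 3106 to 3647 CPM in Late CMDM. All 6 fibroblast markers were lower in Late CMDM than in Early CMDM and than in Classical mono. In Resident-like against Late CMDM 0 of these were higher and 3 lower. The part of fibroblasts in *Il13ra1* was not tested either.

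*Il2rg* (chrX:101264378-101268255, minus strand), which encodes the common gamma chain shared with the receptors for IL-2, IL-7, IL-9, IL-15 and IL-21, was highest in Classical mono. Its levels were 126, 115 and 139 CPM there, against 37.4, 34.0 and 50.1 CPM in Early CMDM, 57.8, 53.1 and 69.5 CPM in Late CMDM and 56.4, 61.9 and 68.1 CPM in Resident-like. Classical mono did not overlap with any other fraction and was 3.13-fold above Early CMDM (log2 fold change -1.65, SE 0.14, edgeR adjusted p = 1.40e-07). Scaled to leukocyte genes that difference was 0.03 and not called. The gene rose by 0.57 from Early to Late CMDM (SE 0.14, edgeR adjusted p = 0.00543), or stood at -0.36 with leukocyte scaling, and Late CMDM and Resident-like did not differ past the threshold (0.05, edgeR adjusted p = 0.839). Against Resident-like, Classical mono was higher under both scalings (log2 fold change of Resident-like over Classical mono -1.03, SE 0.14, edgeR adjusted p = 3.93e-05, and -0.93 with leukocyte scaling). The 6 T and NK cell markers, whose cells use the same chain, summed to 256 to 421 CPM in Classical mono, 164 to 193 in Early CMDM, 72.1 to 100.6 in Late CMDM and 48.7 to 65.6 in Resident-like. Taken singly, 5 of the 6 were lower in Early CMDM than in Classical mono (median log2 fold change -2.79). In Resident-like against Early CMDM 2 were higher and 1 lower (median 0.41). The part of these markers' cells in *Il2rg* was not tested.

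The decoy chain *Il13ra2* (chrX:147383476-147429192, minus strand) was scarce, with 5 to 50 counts a library, and showed the widest relative range of the 10 genes. It was at 0.616, 0.495 and 1.06 CPM in Classical mono, 2.23, 2.34 and 2.60 CPM in Early CMDM, 2.87, 3.04 and 3.30 CPM in Late CMDM and 0.431, 0.303 and 0.412 CPM in Resident-like. Both PD-L2hi fractions lay above both PD-L2lo fractions with no overlap, and the Resident-like libraries held 5 to 8 counts, close to the limit of 3 counts. Early and Late CMDM exceeded Classical mono 3.27-fold and 4.21-fold (log2 fold changes 1.71, SE 0.27, edgeR adjusted p = 8.59e-05, and 2.07, SE 0.27, edgeR adjusted p = 1.65e-05). Late CMDM exceeded Resident-like 7.87-fold (-2.98, SE 0.30, edgeR adjusted p = 2.12e-06). With scaling to leukocyte genes these 3 differences were 3.40, 2.83 and -3.63. Early and Late CMDM did not differ past the threshold (edgeR adjusted p = 0.263), nor did Resident-like and Classical mono (-0.90, edgeR adjusted p = 0.0823), but they did without the second Classical mono library (-1.12) and with library size only (-1.07). The sum of the 4 endothelial markers was also higher in the PD-L2hi fractions, at 126 to 135 CPM in Early CMDM and 128 to 145 CPM in Late CMDM against 69.0 to 75.6 CPM in Classical mono and 44.3 to 65.0 CPM in Resident-like. Of the 4 markers, 3 were higher and 1 lower in Early CMDM than in Classical mono. From Early to Late CMDM 1 was higher and 1 lower. Their part in *Il13ra2* was not tested.

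**Figure D3:**
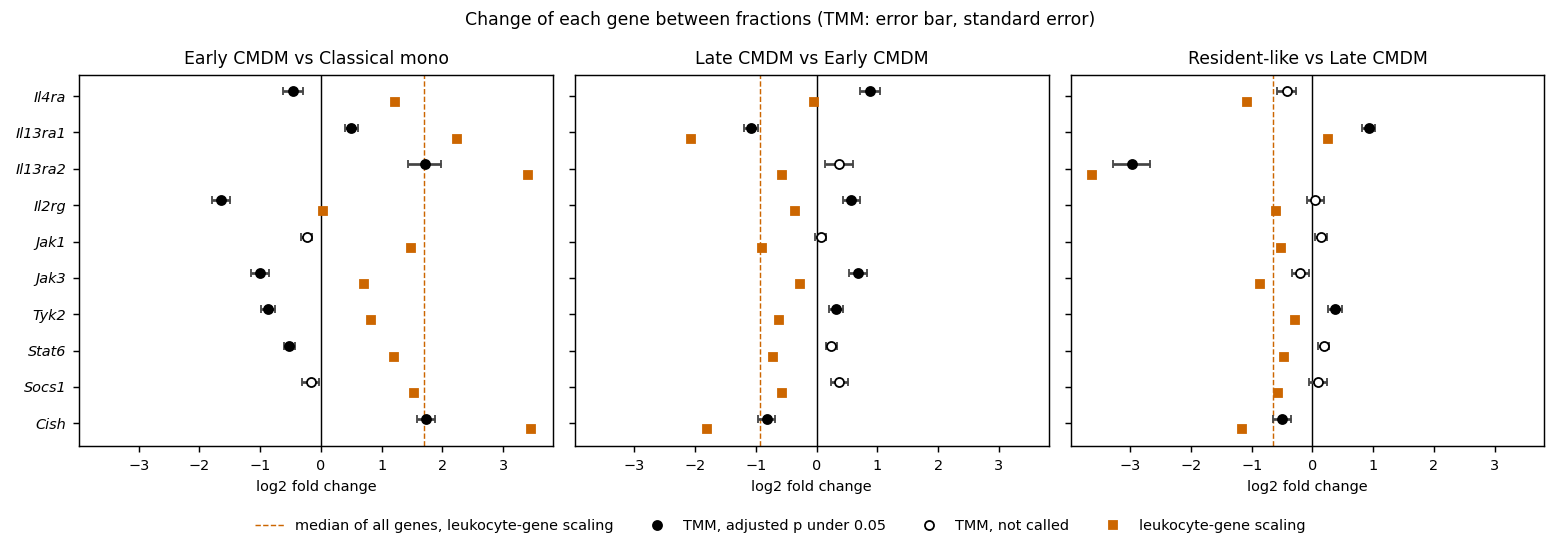
Log2 fold change of the 10 genes from Classical mono to Early CMDM, Early to Late CMDM and Late CMDM to Resident-like, as circles with SE after TMM normalization (filled where the edgeR adjusted p was under 0.05, open where not) and as squares after scaling to 10 leukocyte genes, with a dashed line at the median of all genes under that scaling (1.69, -0.93 and -0.65). *Cish*, *Il13ra1* and *Il13ra2* lie above 0 in the first comparison under both scalings, and the other 7 genes lie below 0 with TMM normalization and above 0 with the leukocyte scaling.

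Among the kinases, *Jak1* (chr4:101152367-101265282, minus strand), which binds the IL-4 receptor alpha chain, was the highest per kilobase of exon in all 4 fractions. It ranged from 231 to 293 CPM over the 12 libraries, with means of 283 ± 12.03 in Classical mono, 239.95 ± 10.1 in Early CMDM, 250.8 ± 13.1 in Late CMDM and 277 ± 26.9 in Resident-like (SD, n = 3). Classical mono lay above Early and Late CMDM without overlap, but no comparison of *Jak1* passed the threshold in the fit to all 12 libraries, the nearest being Early CMDM against Classical mono (log2 fold change -0.24, edgeR adjusted p = 0.0564). That one was called by DESeq2 and with the replicate number as a block (-0.24 each), and without the third Resident-like library (-0.23). With scaling to leukocyte genes it was 1.49 higher in Early CMDM, near the 1.69 of the median gene.

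*Jak3* (chr8:71676296-71690575, plus strand), the kinase of the common gamma chain, was at 19.2, 17.8 and 23.1 CPM in Classical mono, 9.53, 9.93 and 10.5 CPM in Early CMDM, 16.5, 15.6 and 15.9 CPM in Late CMDM and 16.4, 13.7 and 11.5 CPM in Resident-like. The Early CMDM libraries were below all others. The gene was lower in Early CMDM than in Classical mono (log2 fold change -1.003, SE 0.14, edgeR adjusted p = 2.48e-05), or 0.71 higher with leukocyte scaling. It rose by 0.68 from Early to Late CMDM (SE 0.14, edgeR adjusted p = 0.00173), or stood at -0.28, not called, with leukocyte scaling. Late CMDM and Resident-like did not differ past it (edgeR adjusted p = 0.324), nor did Late CMDM and Classical mono (-0.33, edgeR adjusted p = 0.0804), except without the second Classical mono library (-0.40). Resident-like was lower than Classical mono by a log2 fold change of -0.52 (edgeR adjusted p = 0.0104), a call that was lost without the third Resident-like library (-0.41).

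*Tyk2* (chr9:21104068-21131243, minus strand), the kinase of the IL-13 receptor chain, had the order Classical mono, Resident-like, Late CMDM and Early CMDM. Its values were 43.1, 39.6 and 44.9 CPM, then 39.9, 34.5 and 38.0 CPM, then 31.9, 27.5 and 27.8 CPM, and finally 24.9, 19.7 and 25.3 CPM in these fractions. Classical mono overlapped with Resident-like alone, and Late CMDM was clear of both neighbours. Early CMDM was below Classical mono (log2 fold change -0.87, SE 0.11, edgeR adjusted p = 1.16e-05), or 0.83 above it with leukocyte scaling. The step from Early to Late CMDM was 0.32 (edgeR adjusted p = 0.0458) and was not called without the first Classical mono library (0.31), the first (0.36) or second (0.21) Early CMDM library, the first (0.25), second (0.36) or the third (0.35) Late CMDM library or the third Resident-like library (0.32), nor with library size only (0.29), DEGES, the iterative normalization of the study's package (0.28), or no filter on low counts (0.31). With leukocyte scaling that step was -0.62.

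*Stat6* (chr10:127642986-127660957, plus strand) itself varied within a narrow range. It was at 107, 109 and 125 CPM in Classical mono, 77.8, 76.8 and 83.3 CPM in Early CMDM, 93.1, 91.3 and 96.5 CPM in Late CMDM and 108, 101.4 and 110.2 CPM in Resident-like. Early CMDM was the lowest and Late CMDM the next, with no overlap between them or with the other fractions, while Classical mono and Resident-like overlapped. Early CMDM was below Classical mono by a log2 fold change of -0.52 (SE 0.09, edgeR adjusted p = 0.000170), or 1.19 above it with leukocyte scaling. Resident-like exceeded Early CMDM by 0.43 (SE 0.09, edgeR adjusted p = 0.000946), or stood at -1.19 with leukocyte scaling. The step from Early to Late CMDM was 0.24 and did not pass (edgeR adjusted p = 0.0526), but it was called without the third Classical mono library (0.24), by DESeq2 (0.24), with RLE size factors (0.25), with the 2 fractions alone (0.25) and with the replicate number as a block (0.24). Resident-like and Classical mono did not differ past the threshold (edgeR adjusted p = 0.523).

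*Socs1* (chr16:10782240-10785536, minus strand), the inhibitor of JAK activity, passed the test between Early CMDM and Resident-like alone. It was at 65.5, 48.0 and 75.8 CPM in Classical mono, 59.4, 48.4 and 60.7 CPM in Early CMDM, 82.4, 69.0 and 67.1 CPM in Late CMDM and 77.1, 76.4 and 79.3 CPM in Resident-like. Classical mono overlapped with Early and Late CMDM and lay just below Resident-like, and Early CMDM lay below Late CMDM and Resident-like without overlap. The difference of Resident-like over Early CMDM was 0.47 (SE 0.14, edgeR adjusted p = 0.0134), it was lost without the second Early CMDM library (0.37) and with library size only (0.30), and it was -1.14 with leukocyte scaling. Early CMDM against Classical mono was called without the second Classical mono library (-0.33). Late against Early CMDM was called without the second or the third Classical mono library (0.37 each), with no filter (0.37), with RLE size factors, the 2 fractions alone or the replicate number as a block (0.38 each). Resident-like against Classical mono was called without the third Classical mono library (0.45).

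*Cish* (chr9:107296026-107302784, plus strand), with the pair of STAT-type motifs shown above, rose most clearly in Early CMDM. Its levels were 31.5, 36.2 and 22.1 CPM in Classical mono, 104, 106 and 88.2 CPM in Early CMDM, 62.6, 53.9 and 51.9 CPM in Late CMDM and 38.3, 41.7 and 39.2 CPM in Resident-like. The 4 fractions did not overlap, so that the order Early CMDM, Late CMDM, Resident-like and Classical mono held in every library. Early CMDM exceeded Classical mono 3.32-fold (log2 fold change 1.73, SE 0.15, edgeR adjusted p = 1.11e-07), and the difference was 3.46 with leukocyte scaling. *Cish* fell by 0.82 from Early to Late CMDM (SE 0.14, edgeR adjusted p = 0.000323) and by 0.50 from Late CMDM to Resident-like (SE 0.14, edgeR adjusted p = 0.0166). Both falls had the same direction with leukocyte scaling (-1.81 and -1.16), but the second was not called without the first Late CMDM library (-0.42) or without the first (-0.47) or the third (-0.49) Resident-like library. Resident-like and Classical mono were neighbours that did not differ past the threshold (0.41, edgeR adjusted p = 0.0532), although without the second Classical mono (0.57) or the second or the third Early CMDM library (0.42 each), with no filter (0.42) or with the replicate number as a block (0.43) the difference was called. The keratinocyte sum was highest in Early CMDM as well, and its part in *Cish* was not tested. *Cish* was also higher in Late CMDM than in Classical mono (0.91, SE 0.15, edgeR adjusted p = 0.000139, and 1.65 with leukocyte scaling). The keratinocyte sums of these fractions were 3106 to 3647 and 1871 to 4050 CPM.

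Ratios of counts within a library do not depend on the scaling between libraries, and 7 of them were compared over the 4 fractions. They still depend on which cells supplied the RNA. Keratinocyte markers summed to 17096 to 27284 CPM in Early CMDM and to 1871 to 4050 CPM in the other fractions, and their part in the ratios was not tested. The pairs were chosen with earlier results of these data known, so their p-values are not independent evidence. Each was tested by an exact permutation test of the log2 ratio over every assignment of the libraries to fractions (one-sided in the sum of squares between fractions, adjusted over the 7 ratios). The balance of the partner chains, *Il13ra1* to *Il2rg*, was 0.647, 0.795 and 0.596 in Classical mono, 3.42, 3.73 and 2.14 in Early CMDM, 0.966, 1.148 and 0.782 in Late CMDM and 2.08, 1.51 and 1.67 in Resident-like. Early CMDM was thus 4.47-fold above Classical mono (exact permutation adjusted p = 0.000303), and Late CMDM and Classical mono were the neighbours that overlapped. The ratio of *Il13ra1* to *Il4ra* averaged 1.63 in Early CMDM, 1.03 in Resident-like, 0.836 in Classical mono and 0.410 in Late CMDM, a 3.92-fold range (exact permutation adjusted p = 0.000341), with overlap between Resident-like and Classical mono. All 3 Late CMDM libraries, at 0.334 to 0.455, were below the 0.623 to 1.92 of the other 9.

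The ratio of *Il2rg* to *Il4ra* was 1.40, 1.23 and 1.05 in Classical mono and between 0.397 and 0.667 in all 9 other libraries (2.86-fold between Classical mono and Late CMDM, exact permutation adjusted p = 0.000364). Resident-like and Early CMDM overlapped in it. The decoy ratio of *Il13ra2* to *Il13ra1* was 0.0520, 0.0503 and 0.0614 in Late CMDM and 0.00390, 0.00357 and 0.00388 in Resident-like, a 14.4-fold range (exact permutation adjusted p = 0.000227). Early CMDM, at 0.0176 to 0.0245, and Classical mono, at 0.00569 to 0.0131, lay between them, and no neighbours overlapped.

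Of the kinases, *Jak3* to *Jak1* was lowest in Early CMDM (mean 0.0419) and highest in Classical mono (0.0710), a 1.69-fold range (exact permutation adjusted p = 0.000455), and Classical mono overlapped with Late CMDM. *Cish* to *Stat6* was 0.293, 0.334 and 0.177 in Classical mono, 1.34, 1.38 and 1.06 in Early CMDM, 0.673, 0.591 and 0.538 in Late CMDM and 0.355, 0.411 and 0.356 in Resident-like, with no overlap between neighbours and a 4.83-fold range (exact permutation adjusted p = 0.000227). *Socs1* to *Stat6* varied less, from a mean of 0.553 in Classical mono to 0.779 in Late CMDM (1.42-fold, exact permutation adjusted p = 0.0162). Late CMDM, Resident-like and Early CMDM overlapped in it, and without the second Classical mono library, which had the lowest value (0.443), it no longer passed (exact permutation adjusted p = 0.0745).

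**Figure D4:**
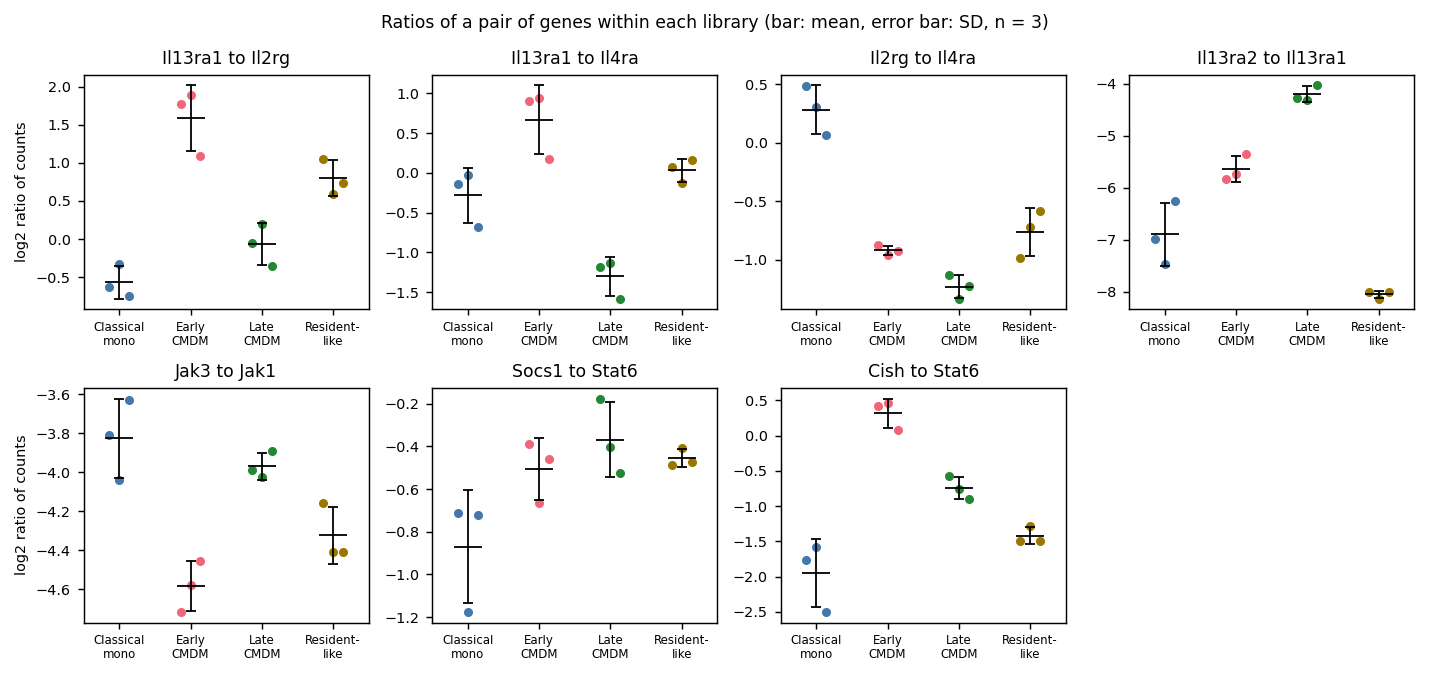
Log2 ratio of counts for the 7 gene pairs in each of the 12 libraries, grouped by fraction, with 1 point for each library. The 3 Late CMDM libraries lie above all others for *Il13ra2* to *Il13ra1* and below all others for *Il13ra1* to *Il4ra*, and the 3 Early CMDM libraries lie above all others for *Cish* to *Stat6*.

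Levels of different genes were compared per length, in CPM per kilobase of the gene's exons. On this scale *Il2rg* led in Classical mono (53.2), ahead of *Jak1* (39.1), *Stat6* (25.8) and *Il13ra1* (23.0), with *Il4ra* at 17.6. In Early CMDM *Jak1* (33.2) and *Il13ra1* (32.5) led, and *Il2rg* was at 16.96 and *Il4ra* at 12.8. In Late CMDM the levels per kilobase of *Il2rg* (25.2), *Socs1* (25.0), *Il4ra* (23.5) and *Stat6* (21.3) were near each other and *Il13ra1* was at 15.4. Resident-like had *Il13ra1* at 29.2, *Il2rg* at 26.0 and *Il4ra* at 17.6. *Il13ra2* was the lowest of the 10 genes per kilobase in all 4 fractions, at 0.168 to 1.35. Thus *Il2rg* was above *Il13ra1* per kilobase in Classical mono and Late CMDM and below it in Early CMDM and Resident-like.

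Over the 12 libraries, log2 CPM of *Stat6* and *Cish* ran in opposite directions (Pearson r = -0.984), as did that of *Il4ra* and *Il13ra1* (r = -0.804), while *Tyk2* ran with *Stat6* (r = 0.948) and *Il2rg* with *Jak3* (r = 0.846). *Cish* also ran against *Tyk2* (r = -0.938), *Il2rg* (-0.893) and *Jak3* (-0.851), and with *Il13ra2* (0.647) and *Il13ra1* (0.260). These are descriptions over libraries that share 4 fractions and their normalization. The fractions also differed in keratinocyte markers and in the share of leukocyte genes, whose part in these correlations was not tested. The genes most like *Il4ra* over the 12 libraries were *Ctsa* (r = 0.960), *Npc1* (0.952) and *Flcn* (0.950), and those most like *Il13ra1* were *Avpi1* (0.966), *Srebf2* (0.962) and *Maml3* (0.953). *Il13ra2* was most like *Gm6822* (0.976), *Gm48942* (0.972) and *Epas1* (0.972), and *Stat6* most like *Wipf1* (0.982), *Tbk1* (0.981) and *Msn* (0.980). The genes nearest to *Socs1* were *4930430E12Rik* (0.946), *Socs3* (0.944), which encodes another inhibitor of JAK signalling, and *Sdc3* (0.935). Nearest to *Cish* were *Nuak1* (0.985) and *Arhgef12* (0.985).

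The ligands were hardly detected in the sorted cells. *Il4* had 7, 2 and 4 counts in the Classical mono libraries, 0, 5 and 0 in Early CMDM, 7, 6 and 2 in Late CMDM and 4, 22 and 0 in Resident-like, and *Il13* had at most 13 counts in any library. Markers of basophils and mast cells, known sources of IL-4 and IL-13, summed to 66.6 to 125 CPM in Resident-like and 7.48 to 48.9 CPM in the other fractions. In the order of the *Il4* counts above, the Resident-like sums were 125, 66.6 and 90.8 CPM. The part of these cells in the *Il4* and *Il13* counts was not tested. *Il4* and *Il13* failed the filter on low counts and had no test between fractions, nor had *Il2* and *Il9*. Of the 4 ligands tested, *Il7*, a survival factor of lymphocytes, rose from Classical mono to Early CMDM (1.08, edgeR adjusted p = 0.00337) and again to Late CMDM (0.82, edgeR adjusted p = 0.0128) before it fell by 2.27 in Resident-like (edgeR adjusted p = 9.88e-06). *Tslp*, an epithelial cytokine, was at a mean of 3.43 CPM in Classical mono, 17.8 in Early CMDM, 22.4 in Late CMDM and 6.72 in Resident-like. *Il15* rose by 0.82 from Early to Late CMDM (edgeR adjusted p = 0.00496), though neither step to Late CMDM, of *Il7* or *Il15*, was a rise with leukocyte scaling, and *Il21*, with 3 to 12 counts a library, passed in none of the 3 comparisons of neighbouring fractions.

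All 7 chains that pair with the common gamma chain or, for *Crlf2*, resemble it, were tested. From Classical mono to Early CMDM 1 rose and 6 fell (median log2 fold change -1.92, background over all tested genes 24.2% higher and 20.6% lower). With leukocyte scaling 2 were higher and 3 lower (median -0.24, all genes 1.69), while 19997 of all 22118 genes were higher and 480 lower. *Il2rb*, the beta chain of the IL-2 and IL-15 receptors, was at a mean of 138 CPM in Classical mono and 4.75 CPM in Early CMDM (log2 fold change -4.86, SE 0.17, edgeR adjusted p = 7.57e-11, and -3.12 with leukocyte scaling). *Il7r* (127 to 33.4 CPM, log2 fold change -1.92), *Il2ra* (-2.68), *Il21r* (-2.19), *Il9r* (-1.21) and *Crlf2* (-1.27) fell too relative to the bulk of genes, although *Il9r* and *Crlf2* stood at 0.46 and 0.39 with leukocyte scaling, while *Il15ra* rose by 0.72 (edgeR adjusted p = 0.00551). The sum of T and NK markers, whose cells use several of these chains, was highest in Classical mono, and the part of these cells was not tested. *Il7r* and *Crlf2* had their highest means in Resident-like (162 and 123 CPM), and *Il15ra* in Early CMDM (14.8 CPM). Keratinocyte markers were also highest in Early CMDM, and their part in *Il15ra* was not tested. From Early to Late CMDM 2 rose (background 14.4%) and *Il15ra* fell (-0.95, edgeR adjusted p = 0.00132, background 17.5%). With leukocyte scaling 0 were higher and 4 lower, while 161 of all 22118 genes were higher and 15967 lower. From Late CMDM to Resident-like 3 rose (background 12.7%), among them *Il7r* (2.01, edgeR adjusted p = 2.78e-09), and *Il15ra* fell (background 15.4%). With leukocyte scaling 1 was higher and 2 lower, while 591 of all 22118 genes were higher and 12103 lower. The count of falls in these last 2 comparisons was near the background.

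The 7 other JAK and STAT genes all fell from Classical mono to Early CMDM relative to the bulk of genes (median -0.998, background 20.6% lower). With leukocyte scaling 6 were higher and *Stat4* alone was lower, while 19997 of all 22118 genes were higher and 480 lower. *Stat4*, which acts downstream of IL-12, went from a mean of 24.6 to 1.11 CPM (log2 fold change -4.46, edgeR adjusted p = 1.35e-08, and -2.79 with leukocyte scaling). In this comparison 5 of the 6 T and NK markers were lower as well, and the part of their cells in *Stat4* was not tested. *Stat5a*, whose product is known to induce *Cish*, went from 91.3 to 39.5 CPM in the same comparison (log2 fold change -1.21, edgeR adjusted p = 1.09e-07, and 0.49 with leukocyte scaling). From Early to Late CMDM 2 rose and none fell (background 14.4% and 17.5%), against 0 and 6 with leukocyte scaling (all 22118 genes: 161 and 15967). *Jak2* was the one of largest change (0.54, edgeR adjusted p = 0.00256, or -0.41 with leukocyte scaling). *Stat5a* was the single gene of the list that changed from Late CMDM to Resident-like (0.89, edgeR adjusted p = 8.56e-06, or 0.23, not called, with leukocyte scaling). The background there was 12.7% higher and 15.4% lower, and the 1 rise was near it.

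Receptor adaptors, 12 genes that link the chains to PI3K and RAS signalling, had 1 higher and 8 lower in Early CMDM than in Classical mono (median -0.77), and 9 higher and 1 lower from Early to Late CMDM (median 0.82; background 24.2% and 20.6%, then 14.4% and 17.5%), against 10 and 0 and then 1 and 5 with leukocyte scaling. From Late CMDM to Resident-like 6 rose and 2 fell (background 12.7% and 15.4%, the falls near it), against 0 and 5 with leukocyte scaling. *Irs1*, an adaptor of the IL-4 and insulin receptors, was the one that rose and then fell (1.501, edgeR adjusted p = 5.41e-05, and then -1.93, edgeR adjusted p = 1.46e-05). Keratinocyte markers were likewise highest in Early CMDM, and their part in *Irs1* was not tested. *Pik3cd*, the leukocyte form of the PI3K catalytic subunit, had means of 68.1, 22.7 and 40.3 CPM in Classical mono, Early CMDM and Late CMDM (log2 fold changes -1.58 and 0.82, or 0.09 and -0.09 with leukocyte scaling), and *Dok2*, an adaptor that restrains signalling, rose by 0.95 from Late CMDM to Resident-like (edgeR adjusted p = 1.23e-05), or 0.28, not called, with leukocyte scaling. Of 16 negative regulators, 3 rose and 5 fell from Classical mono to Early CMDM and 4 rose and 2 fell to Late CMDM, against 15 and 0 and then 0 and 13 with leukocyte scaling. Over all tested genes, 24.2% were higher and 20.6% lower in the first and 14.4% and 17.5% in the second of these comparisons. The counts of rises in the first and of falls in the second were near the background. To Resident-like 5 rose and 2 fell (background 12.7% and 15.4%, the falls near it), against 0 and 10 with leukocyte scaling. With that scaling, 19997 of all 22118 genes were higher and 480 lower in the first comparison. The second gave 161 and 15967, and the third 591 and 12103. *Ptpn6*, which encodes the phosphatase SHP-1, was at 128 CPM in Classical mono and 38.2 CPM in Early CMDM (log2 fold change -1.75, edgeR adjusted p = 1.35e-08, and -0.07 with leukocyte scaling). *Socs6* rose by 0.65 from Early to Late CMDM (edgeR adjusted p = 0.000958, or -0.29 with leukocyte scaling), and *Socs5* rose by 0.86 from Late CMDM to Resident-like (edgeR adjusted p = 7.72e-05, or 0.19 with leukocyte scaling).

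Among 12 cofactors and partners of STAT6, 3 rose and 6 fell from Classical mono to Early CMDM, 5 rose and 1 fell from Early to Late CMDM, and 3 rose and 2 fell from Late CMDM to Resident-like, against 11 and 0, 0 and 8, and 2 and 8 with leukocyte scaling. The background over all tested genes was 24.2% higher and 20.6% lower, then 14.4% and 17.5%, then 12.7% and 15.4%, and the 3 rises of the first comparison were near it. With leukocyte scaling, 19997 of all 22118 genes were higher and 480 lower in the first comparison. The second gave 161 and 15967, and the third 591 and 12103. *Egr2*, a transcription factor that STAT6 induces, rose from 35.3 to 105 CPM between Classical mono and Early CMDM (log2 fold change 1.57, edgeR adjusted p = 2.71e-07, and 3.33 with leukocyte scaling). Its mean in Late CMDM was 98.3 CPM. Keratinocyte markers rose between Classical mono and Early CMDM too, and their part in *Egr2* was not tested. *Irf4*, which cooperates with STAT6 in M2-type activation, rose by 1.18 from Early to Late CMDM (edgeR adjusted p = 3.57e-06) and by 1.25 from Late CMDM to Resident-like (edgeR adjusted p = 1.71e-06), and by 0.23 and 0.59 with leukocyte scaling.

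The 20 macrophage genes known to respond to IL-4 had 5 higher and 6 lower in Early CMDM than in Classical mono, 11 higher and 2 lower in Late than in Early CMDM (median 1.02), and 6 higher and 6 lower in Resident-like than in Late CMDM, against 18 and 0, 6 and 4, and 5 and 10 with leukocyte scaling. The same shares of all tested genes apply (24.2% and 20.6%, 14.4% and 17.5%, 12.7% and 15.4%), and the first comparison was near them in rises. So do the counts of all 22118 genes with leukocyte scaling (19997 and 480, 161 and 15967, 591 and 12103). The list includes *Pdcd1lg2*, whose protein PD-L2 set the sort gates. Without it, 4 of 19 genes were higher and 6 lower in the first comparison, 10 and 2 in the second and 6 and 5 in the third, against 17 and 0, 6 and 4, and 5 and 9 with leukocyte scaling. *Cdh1*, which encodes E-cadherin and is also expressed in keratinocytes, rose 2.29 in the first of these (edgeR adjusted p = 5.90e-08) together with the keratinocyte markers, whose part in it was not tested. *Ccl17*, a chemokine for T helper cells, was at 0.821, 1.59, 9.40 and 7.77 CPM in Classical mono, Early CMDM, Late CMDM and Resident-like and rose by 2.56 from Early to Late CMDM (SE 0.54, edgeR adjusted p = 0.00284, and 1.66 with leukocyte scaling). Its Resident-like libraries were far apart, at 2.43, 6.07 and 14.8 CPM. *Ear2*, which encodes an RNase, rose from 22.2 to 166 CPM from Late CMDM to Resident-like (log2 fold change 2.90, edgeR adjusted p = 1.76e-06). Eosinophil markers were also highest in Resident-like, with sums of 7.10 to 10.5 CPM against at most 2.70 CPM elsewhere. Their part in *Ear2* was not tested. *Pdcd1lg2* itself averaged 14.1, 21.4, 32.2 and 9.60 CPM in the 4 fractions.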

How the data were processed

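RNA of 12 libraries of sorted Mo-Macs was deposited as raw counts per gene. According to the study's methods and the labels, the authors trimmed reads with cutadapt 4.1, mapped them with Bowtie2 2.4.5 to the reference RNA of GRCm38 on 1 strand, took read numbers per transcript and added them up within a gene symbol. Deposited counts were used as they stand, and no column was left out. Reads that fit several genes are counted as the mapper placed them, so near-identical copies are less certain, and no unique molecular identifiers are stated. The limit of 3 counts covers counting error only.

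Differences were tested with edgeR 4.0.16 (R 4.3.3): filterByExpr by fraction (22118 of 37775 genes kept), TMM normalization, a robust quasi-likelihood fit to all 12 libraries with 1 coefficient for each fraction, and Benjamini-Hochberg adjustment over all tested genes with a threshold of 0.05. The study names TCC, which was not used here, and its iterative normalization (DEGES) was run as an alternative with 3 rounds. SE is the absolute log2 fold change divided by the square root of its F statistic. Levels are TMM-normalized CPM. For the 7 ratios, 0.5 was added to each count. Likeness used log2 CPM with a prior count of 2. The tests were checked on simulated counts.

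Replicate libraries of a fraction differed by more than sampling noise (chi-square per degree of freedom 4.24 to 21.9), so none was counted as a copy of another. Alternatives were DESeq2 1.42.0, RLE size factors, library size only, DEGES, scaling by 10 leukocyte genes, no filter, at least 10 counts in every library, fits of the 2 fractions alone, the replicate number as a block, an absolute log2 fold change of at least 1, 1 added to the counts of ratios, and leaving out each library. Positions came from GENCODE M21 (GRCm38), found for 96.8% of tested genes, and promoters from RefSeq. The members, gene lists, ratios and markers were chosen with earlier results of these data known. All 10 members, all ligands and all chains of the common gamma chain list are named, from every other list the called gene with the largest change and no overlap between libraries in each comparison of neighbouring fractions, and for 6 members the 3 genes of highest correlation, of which 1 is not reported here. The target list without *Pdcd1lg2* was counted after the data were seen.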

Additional observations from a re-analysis of the deposited data

How the results depend on the processing

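Most values kept their direction and their side of the threshold: of the log2 fold changes of the 10 genes under the alternatives, 1102 did so, 47 came past the threshold, 53 lost it and 51 changed sign. Scaling by 10 leukocyte genes changed most. It raised the genes called to 20477 for Early CMDM against Classical mono, 16128 for Late against Early CMDM, 14502 for Late CMDM against Classical mono, 12694 for Resident-like against Late CMDM, 20168 for Resident-like against Early CMDM and 20954 for any difference, and in these counts the share of higher against lower calls moved from 5363 and 4562 to 19997 and 480, from 3174 and 3871 to 161 and 15967, from 4000 and 3869 to 13351 and 1151, from 2808 and 3417 to 591 and 12103, and from 4736 and 5561 to 300 and 19868. Of the 10 genes it called 8 in Resident-like against Late CMDM and 1 in Resident-like against Classical mono, and library size only called 5 in the latter. The direction turned under the leukocyte scaling for Early CMDM against Classical mono in *Il4ra* (1.22), *Il2rg* (0.028), *Jak1* (1.49), *Jak3* (0.71), *Tyk2* (0.83), *Stat6* (1.19) and *Socs1* (1.53). For Late against Early CMDM it turned in *Il4ra* (-0.047), *Il13ra2* (-0.58), *Il2rg* (-0.36), *Jak1* (-0.91), *Jak3* (-0.28), *Tyk2* (-0.62), *Stat6* (-0.72) and *Socs1* (-0.57), and for Late CMDM against Classical mono in *Il13ra1* (0.17), *Jak1* (0.58), *Jak3* (0.43), *Tyk2* (0.20) and *Stat6* (0.47). For Resident-like against Late CMDM it turned in *Il2rg* (-0.60), *Jak1* (-0.52), *Tyk2* (-0.29), *Stat6* (-0.47) and *Socs1* (-0.57), against Classical mono in *Il4ra* (0.097), *Jak1* (0.064) and *Stat6* (0.0033), and against Early CMDM in *Il4ra* (-1.12), *Il2rg* (-0.96), *Jak1* (-1.43), *Jak3* (-1.14), *Tyk2* (-0.92), *Stat6* (-1.19) and *Socs1* (-1.14). These turns follow the shift of the median of all genes under that scaling, and which scaling is nearer to amounts per cell was not tested.

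Small differences near 0 turned elsewhere, and the cause was not tested: for Resident-like against Late CMDM, *Il2rg* (-0.086) and *Socs1* (-0.041) with library size only and *Il2rg* with DEGES (-0.021), and for Resident-like against Classical mono, *Il4ra* with no filter (0.0035), with the 2 fractions alone (0.0034) and with the replicate block (0.025). Leaving out 1 library at a time gave -0.095 to 0.198 for *Il4ra* and -0.073 to 0.050 for *Jak1* in Resident-like against Classical mono, and -0.033 to 0.16 for *Il2rg* in Resident-like against Late CMDM. It left 2 to 5 of the 10 genes called in Resident-like against Late CMDM and 1 to 5 in Resident-like against Classical mono, and the log2 range of the *Socs1* to *Stat6* ratio was 0.35 to 0.58. Library size only called 1858 higher and 4780 lower genes in Resident-like against Late CMDM, 1440 and 4531 against Classical mono (2399 and 2852 with TMM) and 3261 and 7081 against Early CMDM, and DEGES called 6337 higher and 3720 lower in Early CMDM against Classical mono and 3677 and 6573 in Resident-like against Early CMDM.

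Requiring an absolute log2 fold change of 1 leaves fewer calls by construction. It kept 4427 genes and 4 of the 10 for Early CMDM against Classical mono, 2631 and 1 for Late against Early CMDM, 3149 and 2 for Late CMDM against Classical mono, 2297 and 1 for Resident-like against Late CMDM, 2272 and 1 against Classical mono and 4683 and 2 against Early CMDM. The labels do not say what the replicate numbers mark. Over 18 pairs of libraries with the same number in different fractions, deviations from the fraction means correlated at -0.0987 to 0.248, 4 of them over 0.1, so that not every pair passed 0.1 and the numbers were not taken to pair libraries. As a hint from the data, not the design, 9 of 12 libraries correlated best with one of their own number. The replicate block called 10322, 7565, 8440, 6799, 5728 and 10656 genes and 9, 8, 7, 5, 4 and 8 of the 10 in the same 6 comparisons. The calls it added were *Jak1* in Early CMDM against Classical mono, *Stat6* and *Socs1* in Late against Early CMDM, *Il4ra* in Late CMDM against Classical mono and in Resident-like against Late CMDM, and *Cish* in Resident-like against Classical mono. Depth limits *Il13ra2* in Resident-like, with 5 to 8 counts a library, and *Il4* and *Il13*, which could not be tested.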
